A study of Mus musculus with 6 samples.

Results

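The genes described here encode the secreted mucus of colonic goblet cells and the factors that mature those cells. The 10 genes were picked out by gene name from 55487 genes in the count tables, by a rule that uses no measured value but was written with earlier results of these data known. They are the gel-forming mucin Muc2, the trefoil peptide Tff3, the mucus proteins Fcgbp, Zg16 and Clca1, the protease inhibitor Spink4, the kallikrein Klk1, the folding enzyme Agr2 and the transcription factors Spdef and Creb3l1. All 10 were found once in each table and all 10 passed the filter on low counts.

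The libraries hold polyadenylated RNA from crypt cells isolated from the colon of C57BL/6 mice aged 4 weeks. The 3 control libraries (control 1 to 3) are from mice with the genotype M14(f/f), in which both copies of M14, read here as Mettl14, carry loxP sites. The 3 mutant libraries (mutant 1 to 3) are from M14(f/f);Villin-Cre mice. Together with Mettl3, Mettl14 forms the enzyme that places N6-methyladenosine on RNA, and Villin-Cre expresses the Cre recombinase throughout the intestinal epithelium, goblet cells included. No control carries Cre, so what Cre does by itself and what the deletion does cannot be told apart. Mice are described as paired across the genotypes, yet nothing shows which control goes with which mutant, and p-values measure the spread between these libraries.

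Goblet cells pack Muc2 into granules, where it forms disulfide-linked polymers, and release it to build the mucus layer that keeps bacteria away from the colon epithelium. Agr2 and other enzymes of the endoplasmic reticulum (ER) fold the mucin before export. Atoh1 commits progenitors to the secretory lineages, and Spdef and Creb3l1 act later, when a goblet cell builds its secretory apparatus. Fcgbp, Clca1 and Zg16 are secreted with Muc2, Clca1 as a protease that processes the mucus and Zg16 as a lectin that binds Gram-positive bacteria. Tff3 supports repair of the epithelium.

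Library totals ran from 24181631 to 35183636 counts, and a count of 0 in a library allows a level of up to 0.0819 to 0.120 CPM, the usual depth-scaled count, which covers counting error only. Mettl14 fell from 23.0 ± 2.78 to 12.8 ± 1.96 CPM (SD, n = 3 each, adjusted p = 2.29e-04 by edgeR), with no overlap between the groups. Sex-linked transcripts set a pair of libraries apart. Xist stood at 651 CPM in mutant 1, at 53.1 CPM in mutant 2 and between 1.28 and 1.77 CPM in the other libraries, and the Y-linked gene Ddx3y at 0.540 CPM in mutant 1 and between 37.9 and 58.3 CPM elsewhere. The 10 genes were therefore also tested without mutant 1 and mutant 2. Of 18539 genes tested 46.5% passed an adjusted p of 0.05, 23.5% as higher and 23.0% as lower in mutants, and for 56.9% the groups did not overlap in CPM (28.7% higher and 28.2% lower in mutants).

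RefSeq start regions on GRCm38.p6 were at hand for 5 of the 10 genes, Muc2, Spdef, Fcgbp, Agr2 and Klk1. The 4 below are shown to set genes that were lower in mutants, Muc2 and Spdef, beside genes that did not pass the test, Fcgbp and Agr2. Each is the 250 bases before the start annotated in RefSeq, 5′ to 3′ on the strand of the gene. For Agr2 and Spdef the RefSeq start lies inside the gene coordinates given below, which come from the count tables. Capitals mark matches to 6 motifs searched on both strands.
Muc2 (chr7:141690090-141690339, plus strand): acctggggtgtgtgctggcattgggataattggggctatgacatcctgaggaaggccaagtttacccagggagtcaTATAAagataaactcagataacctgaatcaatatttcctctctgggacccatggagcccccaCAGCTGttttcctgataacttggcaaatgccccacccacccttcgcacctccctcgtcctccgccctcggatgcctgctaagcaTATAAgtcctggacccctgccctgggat
Spdef (chr17:27728952-27729201, minus strand): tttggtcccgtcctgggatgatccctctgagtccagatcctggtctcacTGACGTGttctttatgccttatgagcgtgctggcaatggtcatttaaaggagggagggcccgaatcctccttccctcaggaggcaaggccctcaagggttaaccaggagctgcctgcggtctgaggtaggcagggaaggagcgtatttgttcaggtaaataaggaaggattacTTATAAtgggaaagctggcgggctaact
Fcgbp (chr7:28070986-28071235, plus strand): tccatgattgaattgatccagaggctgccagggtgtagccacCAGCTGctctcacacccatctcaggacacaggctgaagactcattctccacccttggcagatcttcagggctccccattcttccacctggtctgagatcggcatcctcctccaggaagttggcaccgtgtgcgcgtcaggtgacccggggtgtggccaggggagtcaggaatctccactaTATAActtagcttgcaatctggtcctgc
Agr2 (chr12:35992675-35992924, plus strand): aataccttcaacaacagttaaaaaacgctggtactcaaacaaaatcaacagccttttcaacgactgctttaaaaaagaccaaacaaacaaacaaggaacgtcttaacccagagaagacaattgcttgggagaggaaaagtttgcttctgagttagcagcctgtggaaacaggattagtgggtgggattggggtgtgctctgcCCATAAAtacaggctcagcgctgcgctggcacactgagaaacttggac

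The TATA box letters TATAA began 28 bases before the start of Muc2 and Fcgbp and 27 before that of Spdef, and 22.8% of 32851 RefSeq start regions of this length held them anywhere. In Spdef a match on the other strand, at 28 bases, overlapped it, and Muc2 held another match 174 bases before its start. The E-box CAGCTG, of the kind that Atoh1-type factors bind, lay 112 bases before the start of Muc2 and 208 before that of Fcgbp (4271 of the 32851 regions). Spdef held TGACGTG, the core of an element of the unfolded protein response, 201 bases before its start (1.65% of all regions). Agr2 held the Cdx motif TTTATNG on the other strand, 48 bases before its start (9.81%). The forkhead letters TGTTTAC (3.17%) and the ETS letters CCGGAAG (6.91%) were in none of the 5 windows, and Klk1 held no match to any of the 6. These matches describe letters in a window and not binding.

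Muc2, the main structural protein of colonic mucus, drew the most counts of the 10. It fell to 44.7% of its control mean. Single controls held 10836, 16171 and 15175 CPM and single mutants 7215, 6213 and 5430 CPM, so that each mutant lay below each control. Control 1 was the lowest control. The means were 14061 ± 2837 and 6286 ± 895 CPM, and the log2 fold change, mutant minus control and written log2 change below, was -1.16 (SE 0.164, adjusted p = 1.49e-04 by edgeR). Muc2 lies on the plus strand of chromosome 7, 141690340 to 141754693 on GRCm38. In bulk RNA, fewer goblet cells and less of a transcript per goblet cell cannot be told apart, here or for any gene below.

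Clca1, the mucus metalloprotease on the minus strand of chromosome 3 (145003817 to 145032776), fell in mutants. Either Clca1 or Klk1 had the lowest log2 change of the 10, depending on which libraries were left out. Its controls held 2558, 1729 and 2118 CPM and its mutants 416, 701 and 566 CPM. All mutants were far below all controls, mutant 1 being the lowest. The log2 change was -1.93 (SE 0.224, adjusted p = 4.50e-04 by edgeR), which leaves 26.3% of the control mean.

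Klk1, a tissue kallikrein and thus a secreted serine protease (plus strand of chromosome 7, 44225360 to 44229618), fell to 28.1% of its control mean. Controls held 623, 699 and 795 CPM and mutants 226, 213 and 156 CPM. Spink4, a Kazal-type inhibitor of serine proteases (plus strand of chromosome 4, 40920052 to 40931395), fell to 30.6%. Its controls held 1189, 834 and 969 CPM and its mutants 357, 293 and 266 CPM. Neither gene's groups overlapped. The log2 changes were -1.83 for Klk1 (SE 0.148, adjusted p = 1.26e-05 by edgeR) and -1.71 for Spink4 (SE 0.150, adjusted p = 1.91e-05 by edgeR).

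Tff3, the intestinal trefoil peptide (minus strand of chromosome 17, 31125306 to 31129646), was the member that rose. Controls held 191, 131 and 133 CPM and mutants 242, 299 and 289 CPM. Each mutant exceeded each control, the nearest pair being control 1 and mutant 1. The mean rose from 152 ± 33.7 to 277 ± 30.6 CPM, a log2 change of 0.87 (SE 0.158, adjusted p = 0.00263 by edgeR). Tested against a change of 1.5-fold in place of no change, it did not pass (adjusted p = 0.0936 by edgeR).

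Fcgbp, a large protein with repeated von Willebrand domains that binds to Muc2 (plus strand of chromosome 7, 28071236 to 28120862), did not pass. Its controls held 3410, 2867 and 3135 CPM and its mutants 2394, 2540 and 3056 CPM, and the ranges overlapped through mutant 3. The log2 change of -0.24 had an SE of 0.115 (adjusted p = 0.114 by edgeR) and became -0.34 without mutant 3 (adjusted p = 0.0439 by edgeR). Without mutant 1 and mutant 2 it was -0.0664 (adjusted p = 0.738 by edgeR). Zg16 (minus strand of chromosome 7, 127050156 to 127087328) held 1242, 800 and 993 CPM in controls and 592, 844 and 643 CPM in mutants. Mutant 2 lay above control 2, and the other mutants lay below all controls. Its log2 change of -0.55 (SE 0.191) missed the threshold narrowly (adjusted p = 0.0504 by edgeR). It passed without control 2 (-0.70, adjusted p = 0.00884 by edgeR) and without mutant 2 (-0.72, adjusted p = 0.00898 by edgeR). It did not pass without control 1, control 3, mutant 1 or mutant 3, where the log2 change was -0.38, -0.58, -0.46 and -0.49 (adjusted p = 0.0937, 0.0947, 0.149 and 0.146 by edgeR).

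Agr2, a protein disulfide isomerase needed to make Muc2 (plus strand of chromosome 12, 35992907 to 36004087), stood at 1493, 1976 and 1664 CPM in controls. Mutants held 2109, 1813 and 2145 CPM. Mutant 2 lay within the control range and the other mutants above it. The log2 change of 0.24 had an SE of 0.116 (adjusted p = 0.111 by edgeR) and became 0.35 without control 2 (adjusted p = 0.0318 by edgeR) but 0.14 without control 1 (adjusted p = 0.366 by edgeR).

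Both transcription factors of goblet cell maturation fell. Creb3l1 is a membrane-bound factor that is freed by cleavage and switches on genes of the secretory pathway. Its gene (minus strand of chromosome 2, 91982328 to 92024502) held 448, 470 and 480 CPM in controls. Mutants held 237, 268 and 225 CPM, which is 52.2% of the control mean, and the libraries of each group lay close together. Its log2 change was -0.94 (SE 0.0847, adjusted p = 4.46e-06 by edgeR). Spdef, an ETS factor that drives goblet cell differentiation (minus strand of chromosome 17, 27714352 to 27728955), held 112, 156 and 127 CPM in controls and 104, 90.7 and 94.2 CPM in mutants. The groups came close at control 1 and mutant 1 but did not overlap. The log2 change of Spdef was -0.45 (SE 0.115, adjusted p = 0.00827 by edgeR), and -0.51 without mutant 1 and mutant 2, where it no longer passed with the fewer libraries (adjusted p = 0.0737 by edgeR). Against a change of 1.5-fold Spdef did not pass (adjusted p = 1.00 by edgeR).

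In all, 6 of the 10 fell, 1 rose and 3 did not pass, beside 46.5% of all tested genes that passed in either direction. Their median log2 change was -0.74, against 0.01 over all tested genes. Without mutant 1 and mutant 2 the counts were 5 lower and 1 higher, in a fit where mutant 3 is assumed to vary as controls do. In that fit the log2 change was -1.40 for Muc2, -1.94 for Clca1, -2.21 for Klk1, -1.94 for Spink4, -1.08 for Creb3l1, 0.90 for Tff3, -0.68 for Zg16 and 0.30 for Agr2. The plot of levels by library shows these groups.

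**Figure D1:**
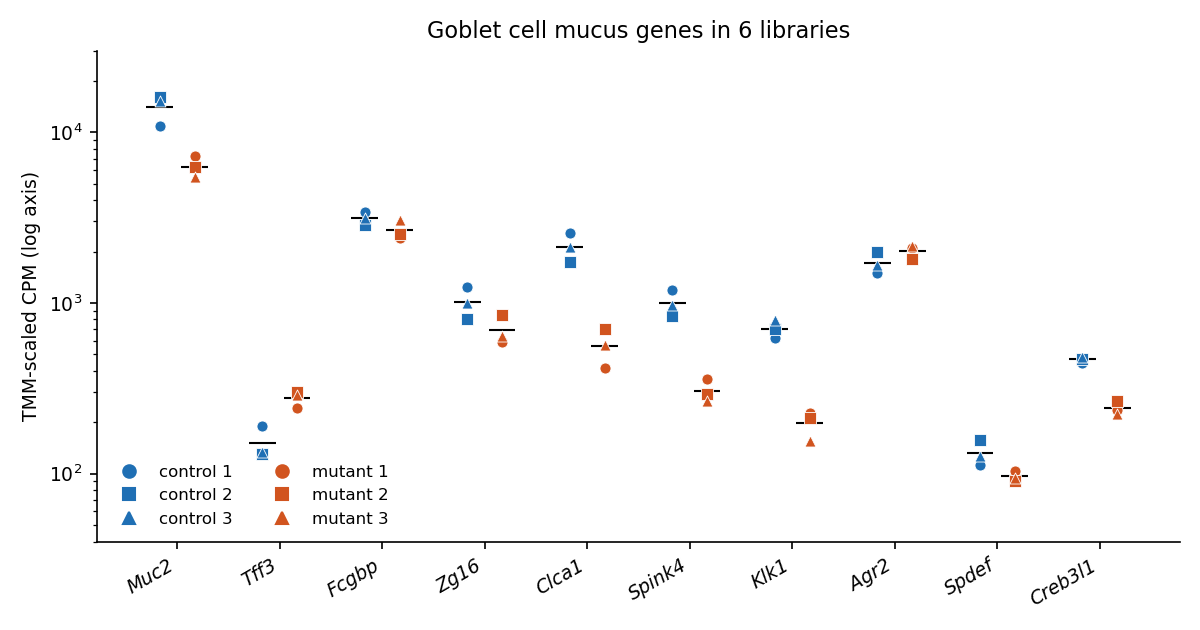
TMM-scaled CPM (vertical log axis) of the 10 genes in each library, controls in blue and mutants in orange, with marker shapes for replicates 1 to 3 and black lines for group means. The groups are apart for Muc2, Clca1, Spink4, Klk1, Spdef and Creb3l1, lower in mutants, and for Tff3, higher in mutants, and they overlap for Fcgbp, Zg16 and Agr2.

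Summed over the 10 genes, transcripts took 2.22%, 2.48% and 2.47% of all counts in controls 1 to 3, and 1.37%, 1.37% and 1.35% in mutants 1 to 3. The summed level fell from between 22101 and 25834 CPM to between 12870 and 13892 CPM. Muc2 alone made up 49.0% to 62.6% of this sum in controls and 42.2% to 51.9% in mutants. The share of Agr2 in the sum was 6.50% to 7.65% in controls and 13.7% to 16.7% in mutants, and that of Tff3 was 0.507% to 0.863% and 1.74% to 2.26%. Without Muc2 the other 9 genes summed to between 9663 and 11265 CPM in controls and between 6677 and 7441 CPM in mutants, with no overlap.

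Levels of different genes were compared only per length, as TPM (length-scaled transcript counts that sum to the same total in each library). In controls Spink4 (5476 ± 1171 TPM) and Muc2 (5125 ± 884 TPM) led and overlapped in their ranges. Agr2 followed at 3449 ± 404 TPM, apart from both neighbours. Zg16 (2110 ± 533 TPM), Klk1 (1706 ± 168 TPM) and Clca1 (1481 ± 336 TPM) overlapped with one another, as did Tff3 (807 ± 209 TPM) and Fcgbp (781 ± 92.8 TPM). Creb3l1 (467 ± 5.93 TPM) and Spdef (149 ± 21.7 TPM) came last, each apart from its neighbours.

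The order was different in mutants, where Agr2 led with 4126 ± 423 TPM, apart from Muc2 at 2311 ± 180 TPM. Spink4 (1676 ± 137 TPM), Tff3 (1489 ± 255 TPM) and Zg16 (1460 ± 339 TPM) overlapped. Fcgbp (672 ± 127 TPM) stood apart from Klk1 (482 ± 71.3 TPM), which overlapped with Clca1 (395 ± 119 TPM). Creb3l1 (246 ± 29.3 TPM) overlapped with Clca1 through mutant 1 of Clca1 and mutant 2 of Creb3l1, and Spdef (110 ± 3.41 TPM) was again the lowest. For Muc2 this scale is uncertain. Its annotated exons sum to 7127 bases, and the longest of its coding transcripts in GENCODE vM21, an older release than the one counted, has 2926 bases. Its gene model may thus be in pieces.

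Set against Muc2 in the same library, the other 9 genes did not follow it in 1 proportion. Tff3 had 1.76, 0.810 and 0.879 CPM per 100 CPM of Muc2 in controls 1 to 3 and 3.36, 4.82 and 5.33 in mutants 1 to 3. Agr2 had 13.8, 12.2 and 10.97 in controls and 29.2, 29.2 and 39.5 in mutants. Tff3, Agr2, Fcgbp and Spdef were higher relative to Muc2 in each mutant than in each control, with differences of 2.03, 1.40, 0.91 and 0.71 in the mean log2 ratio. Klk1 and Spink4 were lower relative to Muc2 in each mutant than in each control, with differences of -0.69 and -0.55. The ratios of Clca1 (-0.79), Zg16 (0.61) and Creb3l1 (0.21) overlapped between groups. Muc2 itself fell, so a gene that stayed level or fell less is higher relative to it. Ratios to Muc2 were not taken for other genes, so how common such a lack of overlap is was not tested. An exact permutation test over 3 against 3 libraries, 2-sided, cannot give a p under 0.1. That was the p for each of the 6 ratios without overlap (0.15 adjusted over the 9 ratios) and 0.2 for the other 3, so no ratio could pass a threshold of 0.05.

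**Figure D2:**
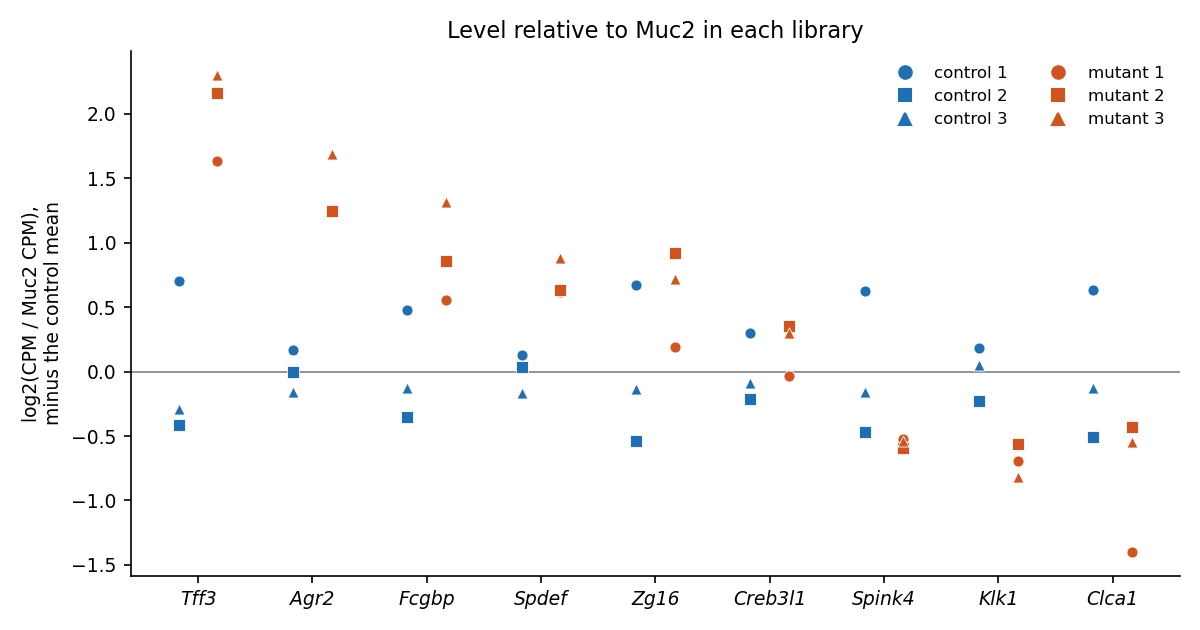
Each point is 1 library and shows the log2 of a gene's CPM over the Muc2 CPM, less the mean of that ratio in controls (vertical axis, log2 units). Tff3, Agr2, Fcgbp and Spdef lie above all controls in the 3 mutants, Klk1 and Spink4 lie below all controls, and Zg16, Creb3l1 and Clca1 overlap.

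Control libraries differed among themselves. Control 1 had the highest level of Tff3, Fcgbp, Zg16, Clca1 and Spink4 of the controls and the lowest level of Muc2, Klk1, Agr2, Spdef and Creb3l1. Control 2 had the highest level of Muc2, Agr2 and Spdef and the lowest level of Tff3, Fcgbp, Zg16, Clca1 and Spink4. Leaving out control 1 moved the log2 change of Tff3 to 1.05 and that of Clca1 to -1.79, and leaving out control 2 moved them to 0.76 and -2.07. Both stayed past the threshold.

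Close relatives were compared with the members, and some moved as their member did and others did not. Muc2 lies in a cluster of gel-forming mucin genes on chromosome 7. Muc6, a mucin of gastric glands and the neighbour of Muc2 on the minus strand (141633456 to 141655319), rose. It held 1.88, 4.03 and 2.96 CPM in controls and 54.1, 45.1 and 45.8 CPM in mutants, a log2 change of 4.03 (SE 0.241, adjusted p = 1.66e-05 by edgeR). Muc19, a gel-forming mucin of salivary glands on chromosome 15, had 1, 4 and 1 counts in controls and 212, 93 and 226 counts in mutants (adjusted p = 1.36e-06 by edgeR), and the size of its fold is imprecise. Even so its mean reached only 6.02 ± 2.24 CPM. Muc5b stood at 0.776 ± 0.395 and 0.848 ± 0.145 CPM (adjusted p = 0.821 by edgeR), and Muc5ac, with 0 to 16 counts a library, was not tested.

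Among trefoil genes, Tff1 rose with Tff3 but stayed near the detection floor, with 2, 0 and 4 counts in controls and 15, 20 and 25 in mutants (adjusted p = 8.24e-04 by edgeR). Tff2 stood at 1.72 ± 1.00 and 0.923 ± 0.455 CPM (adjusted p = 0.233 by edgeR).

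None of the 6 other Clca genes on chromosome 3 fell with Clca1. Clca4b, one of a pair of epithelial Clca4 genes, rose from 21.5, 37.5 and 28.3 CPM in controls to 215, 459 and 530 CPM in mutants, a log2 change of 3.79 (SE 0.476, adjusted p = 0.00341 by edgeR). Clca3a1 rose from 6.50 ± 0.235 to 20.04 ± 1.26 CPM (log2 change 1.63, SE 0.103, adjusted p = 2.97e-07 by edgeR). The others did not pass. Clca3b stood at 922 ± 222 and 900 ± 166 CPM, Clca4a at 390 ± 10.3 and 487 ± 126 CPM, Clca3a2 at 17.5 ± 2.65 and 19.4 ± 1.74 CPM, and Clca2 under 1 CPM in each library. Clca4a passed as higher without mutant 1 (log2 change 0.51, adjusted p = 2.86e-04 by edgeR). Reads that fit several genes equally were not counted, so values of near copies in this cluster are uncertain.

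The 13 kallikrein genes of the Klk1b group, near copies of Klk1, summed to between 1.64 and 2.71 CPM in any library, and only Klk1b4 and Klk1b5 were tested, neither of which passed. Spink1, a trypsin inhibitor of the same family as Spink4, rose from 34.1 ± 2.93 to 205 ± 60.0 CPM (log2 change 2.59, SE 0.245, adjusted p = 4.16e-04 by edgeR). Spink5, another inhibitor gene of this family, rose from 0.301 ± 0.0505 to 0.772 ± 0.203 CPM (adjusted p = 0.0123 by edgeR). Agr3, the neighbour of Agr2, fell from 1.597 ± 0.367 to 0.518 ± 0.200 CPM (adjusted p = 0.00273 by edgeR). 9530053A07Rik, a gene similar to Fcgbp, stood at 1.93 ± 0.429 and 2.68 ± 0.730 CPM (adjusted p = 0.157 by edgeR).

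Of the relatives of Creb3l1, Creb3l4 fell from 70.7 ± 3.80 to 37.9 ± 1.82 CPM, a log2 change of -0.90 (adjusted p = 2.39e-06 by edgeR), and Creb3l2 fell from 18.4 ± 3.37 to 10.9 ± 0.518 CPM. Creb3l3 rose from 25.4 ± 0.260 to 34.8 ± 0.953 CPM, and Creb3 stood at 59.7 ± 3.15 and 55.6 ± 3.96 CPM (adjusted p = 0.309 by edgeR). Among epithelial ETS genes related to Spdef, neither Ehf (607 ± 73.2 and 545 ± 21.3 CPM) nor Elf3 (470 ± 6.27 and 454 ± 65.4 CPM) passed.

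**Figure D3:**
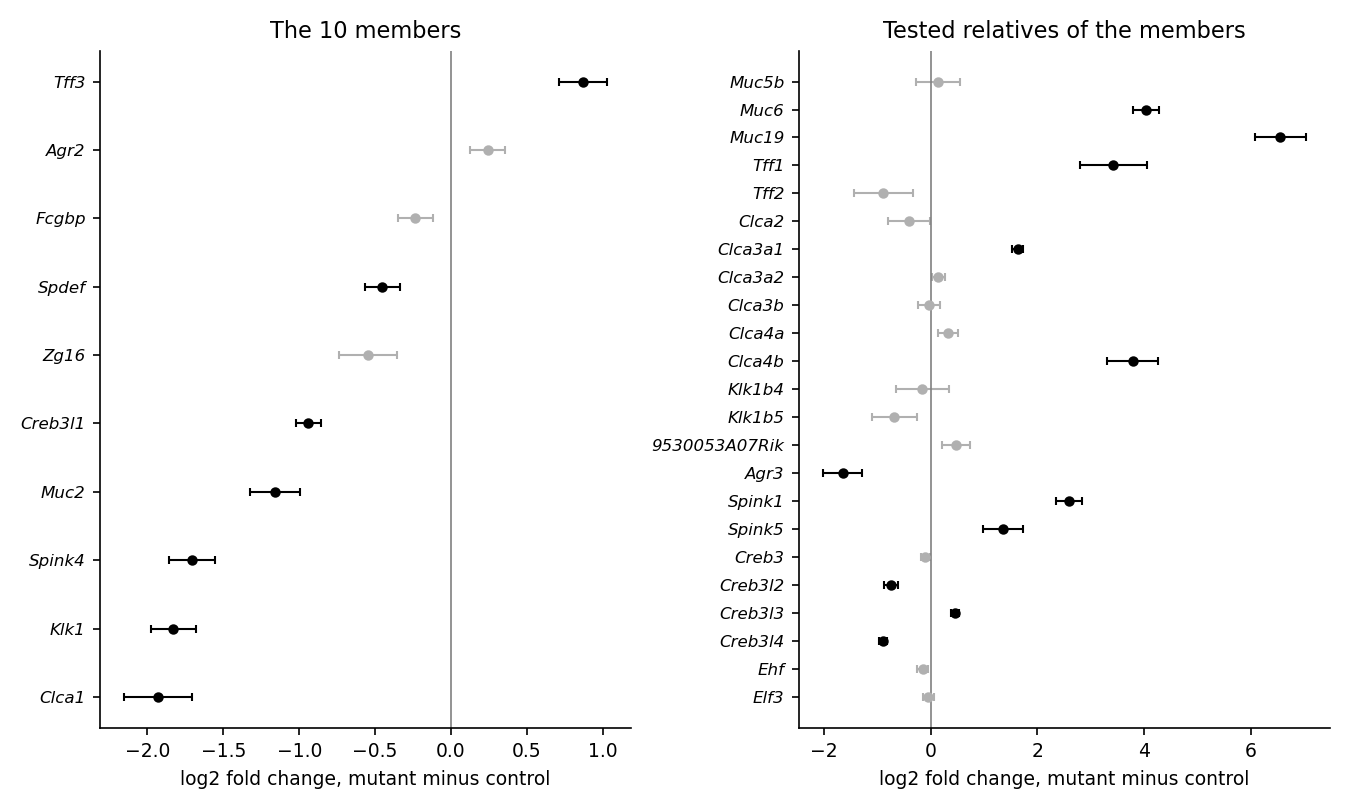
Log2 fold change, mutant minus control, with bars of 1 SE from edgeR, for the 10 genes (left) and their tested relatives (right), black where the adjusted p was under 0.05 and grey elsewhere. Members run from -1.93 (Clca1) to 0.87 (Tff3), while Muc6, Muc19, Tff1, Clca4b and Spink1 lie far to the right, Muc19 and Tff1 on a handful of control counts.

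Beyond the members, 24 other genes of goblet cells were listed, and 14 fell, 6 rose and the other 4 missed the threshold. Among all tested genes 23.0% fell and 23.5% rose. The list had a median of -0.27 in log2 change. Ang4, an antimicrobial ribonuclease, fell from 16.0 ± 0.951 to 1.78 ± 0.250 CPM, the GTPase regulator gene Rap1gap from 275 ± 18.4 to 126 ± 11.7 CPM, and the tryptase Tpsg1 from 27.3 ± 2.39 to 13.2 ± 0.216 CPM. Kcnma1, a calcium-activated potassium channel, fell from 34.3 ± 5.002 to 13.9 ± 1.76 CPM. Their adjusted p-values by edgeR were 2.51e-08, 1.51e-06, 3.53e-06 and 7.99e-06. The count of 14 ranged from 9 to 14 when 1 library was left out, and was lowest without control 3. The count of 6 became 3 without any 1 of control 1, control 2, control 3, mutant 2 or mutant 3.

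The listed transcription factors of secretory fate and goblet maturation went both ways. Of 12 transcription factor genes 6 rose, 3 fell and the other 3 missed the threshold, beside 23.5% higher and 23.0% lower over all tested genes. The list had a median of 0.34 in log2 change. Atoh1 held 101, 116 and 105 CPM in controls and 202, 163 and 188 CPM in mutants, a log2 change of 0.79 (SE 0.0918, adjusted p = 3.19e-05 by edgeR). Gfi1, a target of Atoh1, rose from 13.2 ± 0.0563 to 21.99 ± 2.44 CPM. Sox4, a factor of secretory progenitors, rose from 51.5 ± 2.13 to 115 ± 3.77 CPM. Neurog3, named here with its values known, rose from 2.10 ± 0.777 to 5.16 ± 0.282 CPM (log2 change 1.30, adjusted p = 0.00132 by edgeR).

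The forkhead factors of the gut epithelium split. Foxa1 rose from 111 ± 4.96 to 157 ± 5.62 CPM and Foxa3 from 30.7 ± 2.45 to 44.3 ± 3.14 CPM (adjusted p = 1.50e-04 and 3.72e-04 by edgeR), whereas Foxa2 fell from 19.3 ± 1.76 to 8.88 ± 1.33 CPM (log2 change -1.12, SE 0.126, adjusted p = 2.39e-05 by edgeR). Foxa1 and Foxa3 are named here with their values known. The count of 3 that fell became 1 without control 2, without mutant 2, and without mutant 1 and mutant 2 together.

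Genes that fold and export secreted cargo in the ER went both ways, with 8 higher, 9 lower and 8 not past of 25. The shares over all tested genes were 23.5% higher and 23.0% lower. Hspa5, the main ER chaperone, rose from 732 ± 37.8 to 1535 ± 155 CPM and the disulfide isomerase Pdia4 from 244 ± 19.3 to 414 ± 14.3 CPM. Ern2, the ER stress sensor of mucus-secreting cells, fell from 150 ± 10.7 to 81.1 ± 5.56 CPM and Kdelr2, a receptor that returns proteins to the ER, from 130 ± 4.33 to 82.9 ± 2.43 CPM. Adjusted p-values by edgeR were 4.41e-06 for Hspa5, 1.55e-05 for Pdia4, 5.27e-06 for Ern2 and 1.62e-05 for Kdelr2. The count of 9 became 5 without control 2 or without mutant 2.

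**Figure D4:**
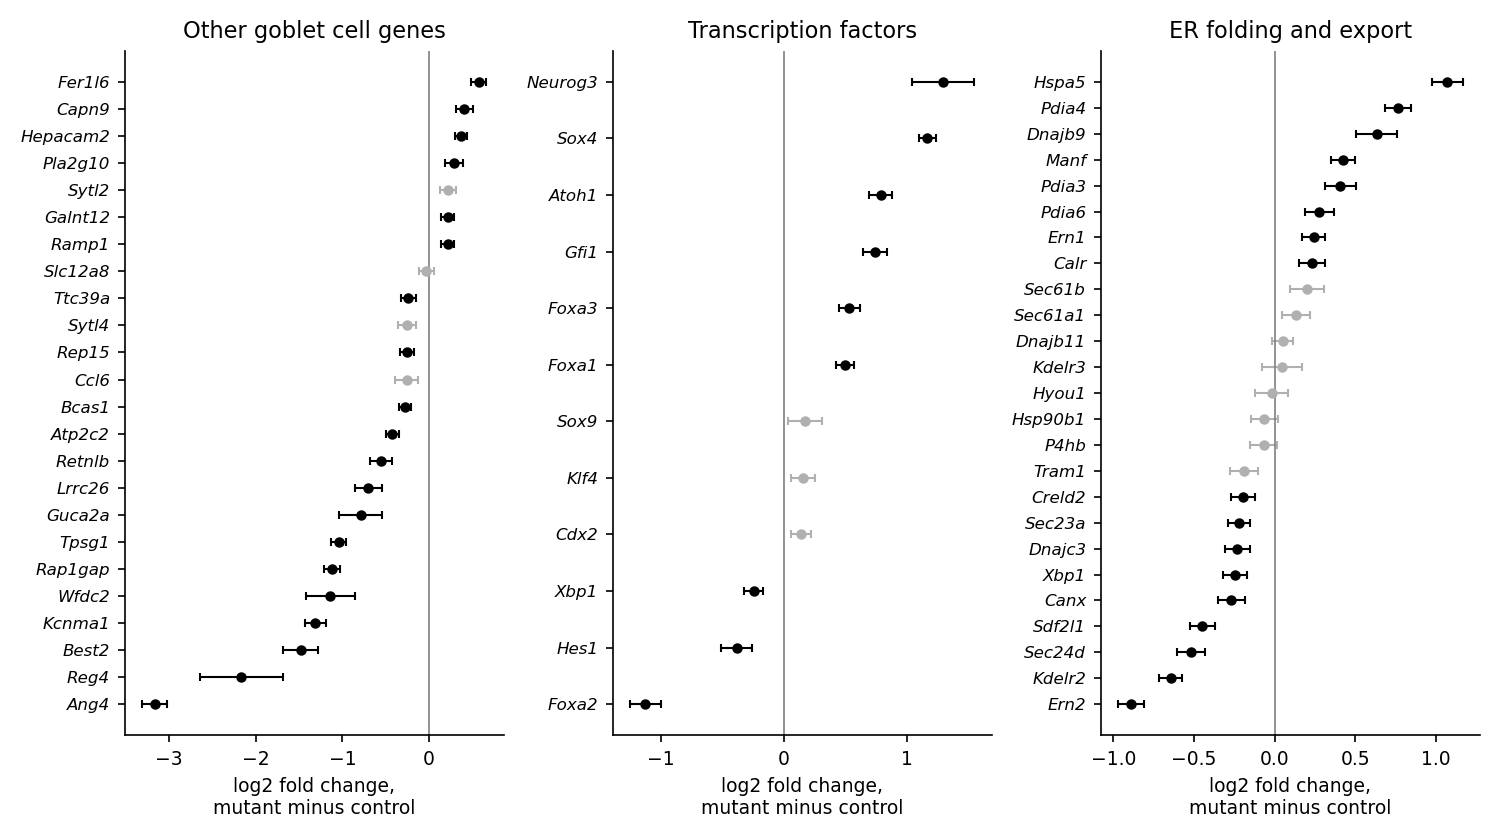
Log2 fold change, mutant minus control, for other goblet cell genes, transcription factors of secretory fate and goblet maturation, and ER folding and export genes. Bars are 1 SE from edgeR. Points are black where the adjusted p was under 0.05 and grey elsewhere. Ang4, Foxa2 and Ern2 mark the lower ends, and Atoh1 and Hspa5 lie to the right of 0.

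Enzymes that build mucin sugars were mixed, with 3 of 14 tested genes higher and 4 lower. This share lies near the 46.5% of all tested genes that passed in either direction. B4galnt2, which adds a terminal sugar to colonic glycans, fell from 756 ± 20.2 to 260 ± 38.2 CPM (adjusted p = 5.10e-07 by edgeR). Galnt4 and Galnt5, which start mucin chains, had log2 changes of -0.39 and -0.45, and C1galt1c1, the chaperone of the core 1 enzyme, one of 0.42. The count of 3 became 1 without control 1, control 3 or mutant 3.

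Of 13 genes for release, cleavage and hydration of mucus 2 rose and 4 fell, about the share over all tested genes (46.5% in either direction). Vamp8, a membrane fusion protein of goblet granules, rose from 123 ± 8.87 to 251 ± 44.1 CPM, and Unc13d, which primes granules, from 15.2 ± 0.475 to 23.9 ± 2.74 CPM. Nlrp6, a sensor linked to goblet cell secretion, fell from 315 ± 10.7 to 133 ± 11.7 CPM, and the chloride and bicarbonate channel Cftr from 301 ± 16.1 to 208 ± 14.7 CPM. Their adjusted p-values by edgeR were 6.61e-05, 2.32e-04, 4.30e-07 and 2.17e-04.

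Of the genes for cytokines and their receptors that act on goblet cells, Il4, Il13, Il25 and Il22 had too few counts to be tested. Of the 8 tested genes of this list 2 rose and 4 fell, beside 23.5% higher and 23.0% lower over all tested genes. The receptor gene Il4ra rose from 35.5 ± 0.668 to 99.2 ± 5.24 CPM (adjusted p = 3.41e-08 by edgeR) and Il13ra1 from 77.7 ± 3.10 to 109 ± 14.9 CPM, while Il22ra1 fell from 42.8 ± 4.96 to 22.1 ± 3.10 CPM. The cytokine gene Il33 fell from 1.29 ± 0.126 to 0.518 ± 0.0697 CPM (adjusted p = 0.00415 by edgeR). Il18, a cytokine made by the epithelium and named here with its values known, fell from 46.6 ± 16.3 to 13.7 ± 3.61 CPM (adjusted p = 0.0120 by edgeR). The count of 4 became 1 without mutant 1 and mutant 2 together.

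Markers of other cells moved in the same libraries, in which 23.5% of all tested genes were higher and 23.0% lower in mutants. The 14 genes of absorptive colonocytes summed to between 13548 and 14661 CPM in controls and between 6236 and 8120 CPM in mutants, 7 of them lower and 1 higher. The 12 tuft cell genes summed to between 64.4 and 64.9 CPM and between 33.0 and 36.1 CPM, with 8 lower and 1 higher. Without control 1 or without control 3, 5 were lower. Of 8 genes of deep crypt secretory cells, which lie at the crypt base and share Reg4 and Retnlb with the goblet cell list, 4 fell and 1 rose, and they summed to between 1435 and 2059 CPM and between 864 and 1115 CPM. Enteroendocrine genes divided evenly, 4 higher and 4 lower of 12, and of 10 stem and progenitor genes 2 rose and 5 fell.

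Of 10 macrophage and dendritic cell markers 9 rose and C1qa fell, and without mutant 1 and mutant 2 these counts were 8 and 0. They summed to between 35.1 and 44.6 CPM in controls and between 72.4 and 98.9 CPM in mutants. The 8 lymphocyte markers summed to between 9.80 and 12.0 CPM and between 12.2 and 18.5 CPM, with 1 of the 5 tested higher. The 8 genes of fibroblasts, muscle and endothelium summed to between 240 and 279 CPM and between 131 and 154 CPM, with 5 lower and 1 higher, and 3 lower without mutant 1 and mutant 2. Over all tested genes 23.5% were higher and 23.0% lower. No marker of these lists was at 0 in all libraries. The part of any of these cells in the changes of the 10 genes was not tested.

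Among 3995 candidates of at least 50 CPM, the genes whose levels ran most like Muc2 over the 6 libraries included Gmds, Pdxdc1 and Nek9, with Pearson correlations of log2 CPM of 0.999, 0.997 and 0.995. Gmds carries out a step in the making of GDP-fucose, the donor for fucose on glycans. The 4 most like Spdef were Nr5a2, Cldn2, Usp9x and Dlg1, with correlations of 0.996, 0.994, 0.990 and 0.989. The 6 points share the split by genotype, so these values describe likeness in these libraries only. The changes were smaller than that of Muc2, with log2 changes of -0.41 for Gmds and -0.61 for Pdxdc1. Of the genes like Spdef, Dlg1 did not pass (adjusted p = 0.236 by edgeR).

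The study concerns N6-methyladenosine, which is placed mostly at short motifs such as GGACU, written GGACT in DNA letters. In the longest annotated coding transcript of each gene, Fcgbp held 10 copies, Spdef 5, Muc2 and Creb3l1 4 each, Clca1 and Agr2 3 each, Tff3, Zg16 and Klk1 2 each, and Spink4 none. For Muc2 that transcript has 2926 bases, fewer than the 7127 bases of its annotated exons, so its count may cover only a part of the RNA. Per kilobase, Tff3 (4.06) and Agr2 (3.83) held the most and Clca1 (0.821) and Spink4 (0.00) the least, beside a median of 1.01 over 21877 genes, of which 87.6% held at least 1 copy. Methylation itself was not measured in these libraries, and a match is no sign of a modified site.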

How the data were processed

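Per the labels' protocols, polyadenylated RNA was captured on Dynabeads and libraries came from a SMARTer kit that keeps strand. The submitters' processing notes name Trim Galore 0.6.5, STAR 2.6.1d and the build GRCm38. The deposited values are raw counts of read pairs per gene, made with featureCounts 1.6.4 on GENCODE vM25, counting on the strand of read 1 and with no option for reads that fit several places or genes, per the file headers. Every row names a gene.

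Counts were filtered with filterByExpr (minimum count 10, minimum total 15), scaled by TMM and tested with the quasi-likelihood F test of edgeR 4.0.16 in R 4.3.3 (2-sided, genotype as the only term, robust). The Benjamini-Hochberg adjustment ran over 18539 tested genes, at a threshold of 0.05. "Rose" and "fell" are used only past it. CPM are TMM-scaled, and TPM use the deposited gene lengths. SDs are over 3 libraries. The fits were tested on simulated data in which few genes changed. That test does not cover data with as many changed genes as here. Pairs of libraries of the same group differed by more than counting noise (chi-square per gene of 13.5 to 90.9), so each was counted separately.

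The 10 genes, 19 lists, motifs and tests were chosen with earlier results of these data known. The rule for naming covered the members, Mettl14, relatives, up to 4 genes with the smallest p per list, and the 4 genes most like Muc2 and Spdef. Marker lists of other cell types are given as sums and counts only, and 1 gene like Muc2 is not reported here. Other genes named were chosen after their values were seen. Alternatives were other scalings, filters, DESeq2 1.42.0, limma-voom (limma 3.58.1), a null of 1.5-fold, a threshold of 0.01, a replicate block and leaving out libraries.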

Additional observations from a re-analysis of the deposited data

How the results depend on the processing

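The direction of all 10 genes was the same under each of the 18 alternatives. Muc2, Clca1, Spink4, Klk1 and Creb3l1 passed under every one of them, with log2 fold changes of -1.40 to -1.06, -2.12 to -1.76, -1.94 to -1.57, -2.21 to -1.68 and -1.08 to -0.87. Calls that changed concerned Zg16, Agr2, Fcgbp, Spdef and Tff3, and their cause was not tested. Zg16 also passed with upper quartile scaling (adjusted p = 0.0341), a minimum count of 50 (0.0484) and DESeq2 (0.00161). Agr2 passed with library totals only (0.0422), and Agr2 and Fcgbp with no filter on low counts (0.0382 and 0.00312). The members higher were 2 with library totals only and with no filter on low counts, and 0 against the null of 1.5-fold, where the members lower were 5. The members higher ran from 1 to 2 and the members lower from 6 to 7 when 1 library was left out. All genes higher and all genes lower were 4358 and 4265, and 1700 and 1023 against the null of 1.5-fold. With library totals only they were 4883 and 3423, a shift in the split with a median log2 fold change of 0.08 over all genes, and with no filter that median was 0.19.

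The replicate block gave 1 of the members higher and 6 lower, as without it, and 3850 genes higher and 3691 lower. Deviations of libraries with the same number correlated at -0.12, -0.10 and -0.15, and no library correlated best with its own number. Deviations from means of only 3 libraries cannot decide whether the numbers pair the libraries.

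Signs that turned concerned genes that did not pass in any of the fits named here, and the cause was not tested. With library totals only, the log2 fold change was 0.0256 for Clca3b and 0.0242 for Elf3. With libraries left out, it ran from -0.38 to 0.12 for Clca3b, from -0.12 to 0.0525 for Elf3, from -0.25 to 0.37 for Muc5b, from -0.72 to 0.18 for Klk1b4, from -0.0028 to 0.20 for Clca3a2 and from -0.0607 to 0.40 for Ptprc. The negative ends for Clca3a2 and Ptprc, and 0.0503 for Elf3, came without mutant 1 and mutant 2.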
